A study of Mus musculus with 48 samples.

Results

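The endothelial and blood-brain barrier genes described here are 10 genes chosen by symbol: Cldn5, Ocln, Tjp1, Cdh5, Pecam1, Tek, Flt1, Slc2a1, Mfsd2a and Abcb1a. All 10 were found in both expression tables, out of 16952 genes listed in both, 18939 used from the APOE-TR table and 27082 used from the B6 table. Cerebral cortex RNA was sequenced from 48 mice in 12 groups of 4, by sex, genotype and inhaled exposure. The B6 mice (C57BL/6J, wild type) were 4 months old and were exposed for 8 weeks. The APOE-TR mice, in which human APOE3 or APOE4 replaces the mouse gene, were 6 months old and were exposed for 15 weeks. Each mouse breathed filtered air (control) or nPM, a nanosized subfraction of ambient particulate matter, for 5 hours a day on 3 days a week. Age, exposure time and genotype therefore differ together between B6 and APOE-TR mice, and the APOE alleles replace the mouse gene in every cell. The question was how these genes varied with nPM and with the APOE allele, and the sexes were compared as well after the values had been seen.

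Brain capillary endothelial cells form the blood-brain barrier by sealing their contacts with tight junctions, by keeping transcytosis low and by carrying nutrients and expelling drugs through dedicated transporters. Claudin-5 (Cldn5) and occludin (Ocln) span the tight junction membrane, ZO-1 (Tjp1) is its cytoplasmic scaffold, and VE-cadherin (Cdh5) and CD31 (Pecam1) hold endothelial cells together. Tie2 (Tek) is the angiopoietin receptor and VEGFR1 (Flt1) binds VEGF. Slc2a1 encodes GLUT1, the glucose carrier of the barrier, Mfsd2a carries lysophospholipids that bear omega-3 fatty acids and restrains caveolar transcytosis, and Abcb1a encodes P-glycoprotein, a drug efflux pump. Tjp1 and Slc2a1 are also made by other brain cells, astrocytes among them.

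Values are CPM (read counts scaled to library size) as deposited. Low values behaved as if 1 read had been added to every gene, so each printed CPM carries about the worth of 1 read, 0.0220 to 0.0481 CPM in APOE-TR and 0.0258 to 0.254 CPM in B6 mice, and the values of a mouse summed to between 526568 and 880442. The lowest value of each library gave an estimated depth of 17.8 to 22.3 M reads in APOE-TR females, 22.4 to 31.3 M in APOE-TR males and 2.05 to 24.4 M in B6 mice, so B6 values carry the larger counting error. The shallowest library was B6 male control 6. Among APOE3 female controls the share of mitochondrial transcripts was 12.5 to 21.8%, with mice 61 and F6 at the top, against 7.03 to 8.32% in APOE-TR males. Xist and Ddx3y matched the labelled sex of all 48 libraries. Xist was lower in APOE3 female controls 61 (90.3 CPM) and F6 (211 CPM) than in controls 63 (589 CPM) and 52 (910 CPM) of that group. All 7 cortex markers and all 20 other endothelial genes checked were above the lowest value in at least 1 mouse of every group. This shows detection only, not an even tissue content. The summed cortex markers were 88.9 to 447 CPM in B6 male controls and 277 to 514 CPM in B6 nPM males. Summed striatum markers were 702 to 1885 and 110 to 1742 CPM in the same groups, and their part in the B6 results was not tested. CPM values of the 10 genes correspond to at least 32 estimated reads in any APOE-TR mouse (Cdh5) and to as few as 7 in B6 (Ocln). Separate animals are named by their numbers in the labels.

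Promoter sequence is shown for the members that passed the test in the comparisons below, Slc2a1, Mfsd2a and Flt1, and for Tek, the other receptor, which like Flt1 had lower values in every APOE4 than in every APOE3 male exposed to nPM. Each run is the 250 bases before the RefSeq start (GRCm38.p6, the mm10 assembly), 5′ to 3′ on the gene's strand. Capitals mark GGAA, the core read by ETS factors, and ACGTG, the core read by hypoxia-inducible factors, on either strand, and no match of one motif overlapped a match of the other. Flt1 is at chr5:147726012-147726261 (minus strand), Tek at chr4:94739039-94739288 (plus), Slc2a1 at chr4:119108495-119108744 (plus) and Mfsd2a at chr4:122961189-122961438 (minus).
Flt1: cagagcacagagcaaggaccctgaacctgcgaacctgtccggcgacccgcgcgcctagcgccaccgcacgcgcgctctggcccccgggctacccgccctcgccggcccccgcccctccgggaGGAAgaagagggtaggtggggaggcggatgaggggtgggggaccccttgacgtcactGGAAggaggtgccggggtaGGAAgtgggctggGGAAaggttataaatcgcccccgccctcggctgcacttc
Tek: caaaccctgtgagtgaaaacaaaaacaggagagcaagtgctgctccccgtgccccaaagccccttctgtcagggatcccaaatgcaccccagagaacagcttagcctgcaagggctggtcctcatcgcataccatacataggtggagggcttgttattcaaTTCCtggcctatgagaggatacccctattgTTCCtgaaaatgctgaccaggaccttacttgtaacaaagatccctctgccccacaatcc
Slc2a1: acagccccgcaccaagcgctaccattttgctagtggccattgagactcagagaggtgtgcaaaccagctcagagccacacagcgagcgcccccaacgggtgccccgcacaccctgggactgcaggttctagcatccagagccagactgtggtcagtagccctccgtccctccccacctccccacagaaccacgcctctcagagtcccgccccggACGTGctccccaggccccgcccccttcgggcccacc
Mfsd2a: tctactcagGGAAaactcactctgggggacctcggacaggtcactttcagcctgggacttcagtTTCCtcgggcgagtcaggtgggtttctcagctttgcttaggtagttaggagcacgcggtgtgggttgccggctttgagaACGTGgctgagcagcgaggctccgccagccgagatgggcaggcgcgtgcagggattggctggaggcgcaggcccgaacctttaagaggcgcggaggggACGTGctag

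GGAA was matched 4 times in the Flt1 window, 2 times in Tek, 2 times in Mfsd2a and 0 times in Slc2a1, and 93.4% of all 32817 promoter windows of this length held at least 1 match. ACGTG was matched 1 time in Slc2a1 and 2 times in Mfsd2a and in none of the windows of the 6 other members that have one, against 16.6% of all windows. These matches describe the letters and are not evidence of binding.

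The 10 genes fell into abundant and scarce transcripts. Per kilobase of the longest coding transcript, the highest level in 8 APOE-TR male controls was that of Slc2a1 at 15.1 ± 1.57 CPM per kb (SD), followed by Tjp1 at 11.9 ± 1.14 and Cldn5 at 9.99 ± 2.32. The other 7 genes lay between 1.51 ± 0.128 (Ocln) and 3.82 ± 0.434 (Mfsd2a) CPM per kb, with Flt1, Pecam1 and Abcb1a at 3.81 ± 0.849, 3.56 ± 0.524 and 3.47 ± 0.569. Those last values did not differ beyond their spread. In B6 controls of both sexes the highest per-length level was again that of Slc2a1, 11.6 ± 5.96 CPM per kb (n = 8), and the lowest that of Ocln, 0.591 ± 0.256. The males carried that first place, since Slc2a1 was 16.8 ± 3.00 CPM per kb in B6 male controls but 6.40 ± 1.24 in B6 female controls (n = 4 each). In the females Tjp1 (6.12 ± 0.93) and Cldn5 (5.99 ± 1.45) lay within the spread of Slc2a1.

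Over the 12 groups, 5 members (Ocln, Tjp1, Pecam1, Flt1 and Slc2a1) and Abcb1a had their highest mean CPM in APOE3 males exposed to nPM, and Cldn5 had its highest in APOE3 male controls. Flt1 had the widest range of group means, from 34.7 ± 2.75 CPM in APOE3 nPM males to 5.60 ± 3.32 in APOE3 female controls (n = 4 each), a ratio of 6.19. Cldn5 had the narrowest, from 15.2 ± 3.05 CPM in APOE3 male controls to 7.86 ± 3.41 in APOE4 nPM females, a ratio of 1.93. Of the 110 steps between neighbouring groups in the order of the 10 genes, 5 exceeded the sum of the SDs of both groups. For Tjp1 that step lay between APOE4 nPM males (79.5 ± 1.39 CPM) and APOE4 nPM females (60.99 ± 2.95), for Cdh5 between APOE4 male controls (7.11 ± 1.25) and APOE4 female controls (3.02 ± 0.327), and for Flt1 between B6 male controls (20.3 ± 5.19) and APOE3 nPM females (7.17 ± 3.31). All other neighbours in the order did not differ beyond that spread, apart from 1 step of Abcb1a, between B6 nPM females and APOE4 female controls, and 1 of Slc2a1, between B6 nPM females and B6 female controls. B6 and APOE-TR levels come from tables normalised separately and are set side by side only.

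**Figure D1:**
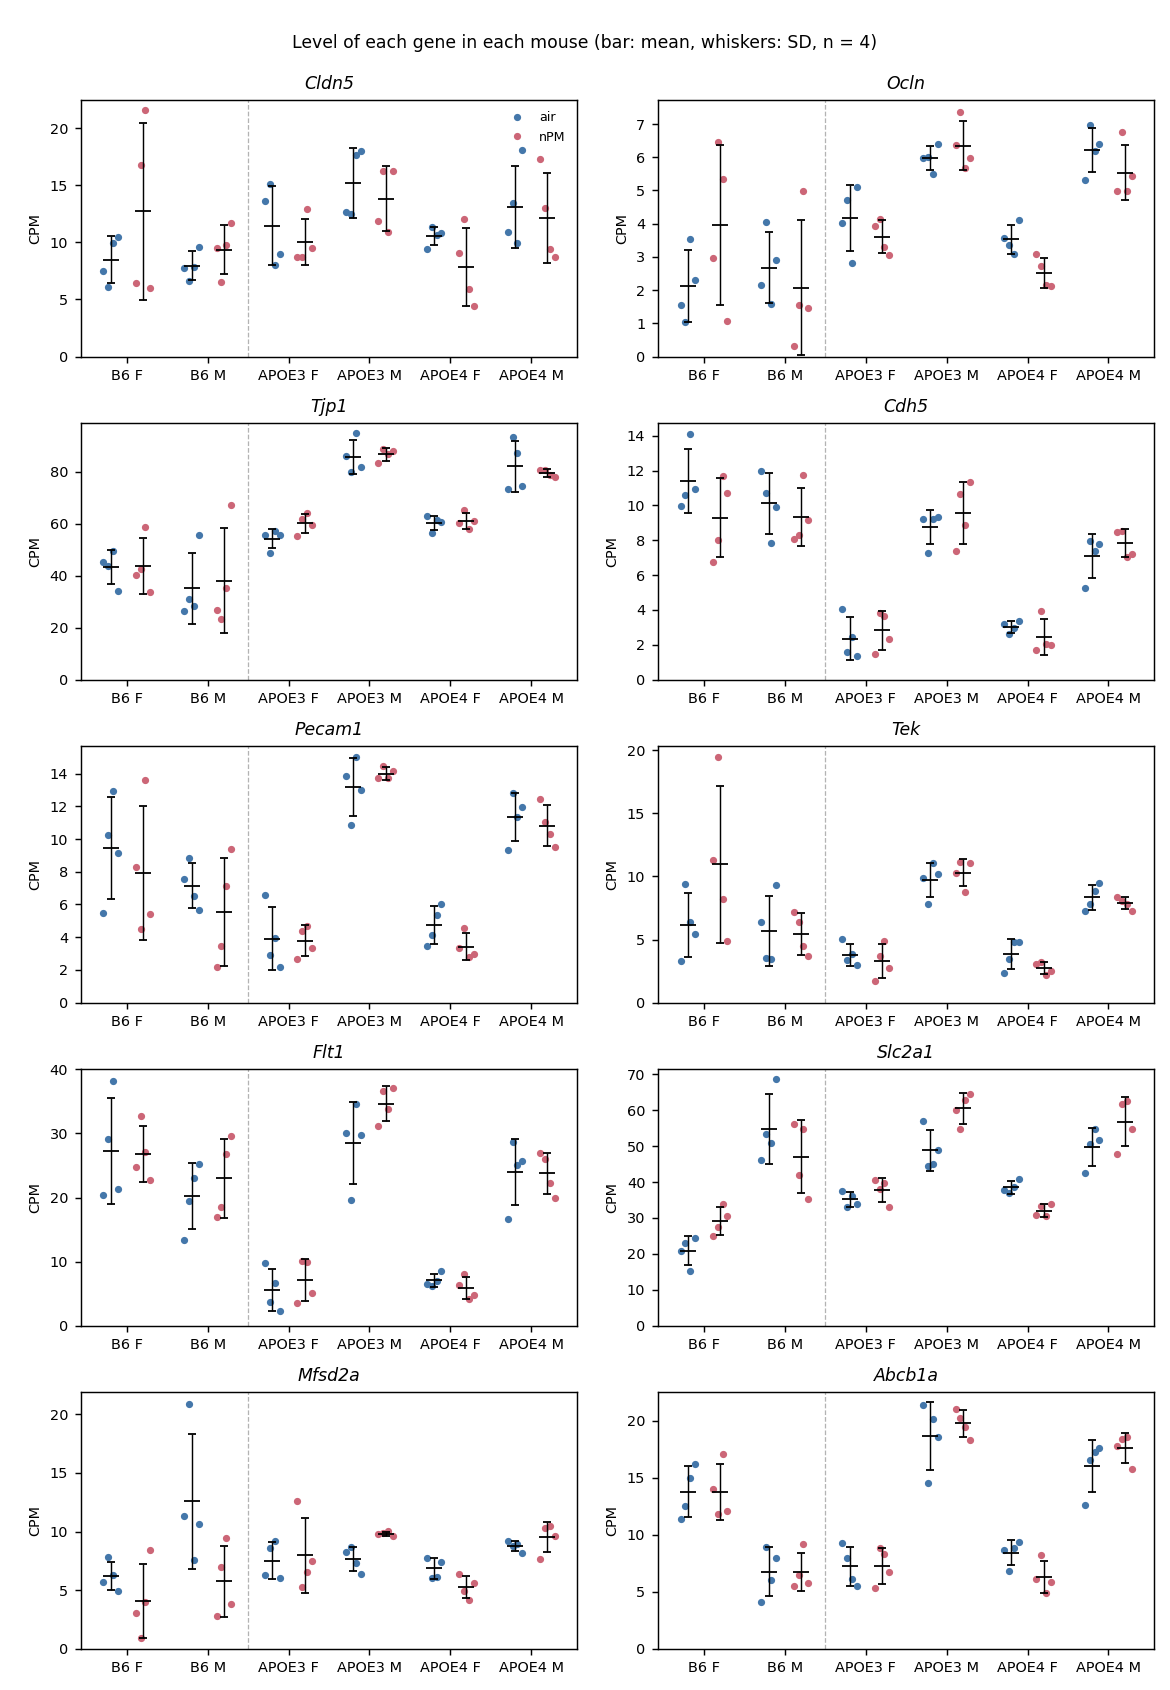
CPM of each of the 10 genes (vertical axis, from 0) in each of 48 mice, by genotype and sex (F, female; M, male) on the horizontal axis, with controls in blue and nPM mice in red; bars and whiskers are the mean and SD of 4 mice, and the dashed line separates the B6 and APOE-TR tables. For Flt1, the 16 APOE-TR females lie between 2.30 and 10.1 CPM and the 16 APOE-TR males between 16.7 and 37.1.

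In APOE3 males, nPM mice had higher Slc2a1 and Mfsd2a than controls, and no member was lower by the test. Differences are log2(nPM/air) of TMM-scaled CPM + 0.5 from limma, called at an unadjusted p under 0.005 as for all nPM comparisons. Mfsd2a was 6.39, 7.35, 8.28 and 8.65 CPM in controls and 9.62, 9.76, 9.91 and 10.01 CPM in nPM mice. Every nPM mouse was above every control, as for 1.55% of all genes without overlap in either direction. The log2 difference was 0.35 (95% CI 0.14 to 0.56, unadjusted p = 0.00343). The exact permutation p was 0.0286, the smallest that 8 mice allow. That permutation test, here and below, used log2(CPM + 0.5) of the deposited CPM without TMM scaling. Slc2a1 was 44.4, 45.1, 48.8 and 57.0 CPM in controls and 54.7, 60.0, 62.9 and 64.5 CPM in nPM mice, with control 51 above nPM mouse 56. Its log2 difference was 0.32 (0.13 to 0.50, unadjusted p = 0.00297, exact permutation p = 0.0571). These 2 of 10 members compare with 0.154% of the 16896 genes tested, and both had an adjusted p of 1.00. The 8 other members ranged from -0.12 (Cldn5) to 0.31 (Flt1, exact permutation p = 0.0857), and the median of the 10 was 0.10 against 0.01 for all genes. Among the 20 other endothelial genes, Vwf, the von Willebrand factor gene, rose (0.39, SE 0.11, adjusted p = 0.9999), and the list's median was 0.16. Both calls were lost when differences were taken relative to the mean of those 20 genes (Slc2a1 0.16, Mfsd2a 0.19). With the mitochondrial share as a covariate the differences stayed near their size (Slc2a1 0.30, Mfsd2a 0.35) but were no longer called. Each call was also lost on leaving out 6 of the 8 mice in turn, with differences of 0.28 to 0.32 for Slc2a1 (without controls 55, 63 or 73 or nPM mice 53, 58 or 76) and 0.27 to 0.36 for Mfsd2a (without controls 63 or 73 or nPM mice 53, 56, 58 or 76).

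In APOE4 females the shift had the other sign, and Slc2a1 was lower in nPM mice than in controls. Slc2a1 was 36.9, 37.8, 38.6 and 40.99 CPM in controls and 30.5, 30.8, 33.2 and 33.8 CPM in nPM mice, so the groups did not overlap. The log2 difference was -0.25 (95% CI -0.38 to -0.12, unadjusted p = 0.0015, adjusted p = 0.754; exact permutation p = 0.0286). This 1 of 10 members compares with 0.266% of 16559 genes called. Ocln, the occludin gene, was 3.08, 3.34, 3.57 and 4.10 CPM in controls and 2.13, 2.16, 2.72 and 3.08 CPM in nPM mice. The highest nPM value lay just under the lowest control value, and the difference of -0.41 (-0.71 to -0.12, exact permutation p = 0.0286) was not called. Slc2a1 and Ocln were the 2 members whose ranges did not overlap, as for 3.47% of all genes. Abcb1a, Pecam1, Tek, Mfsd2a, Cldn5, Cdh5 and Flt1 had differences of -0.28 to -0.48 with unadjusted p of 0.0231 to 0.151, and Tjp1 had 0.03. In all, 9 of 10 members lay below 0 with a median of -0.36, against 49.3% of all genes and a median of 0.00, and 9 of 10 also did relative to the mean of 20 other endothelial genes. The Slc2a1 call was lost without nPM mouse 27 (-0.23). With the spread shared over the 8 APOE-TR groups it was also lost (-0.26), and Ocln (-0.41) was the 1 member called instead. Without nPM mouse 23, which had the highest Cdh5, Pecam1 and Cldn5 of its group, Cdh5 (-0.54) and Abcb1a (-0.53) were called as well; Tek (-0.58) was called without control 7 and Ocln (-0.50) without nPM mouse 8.

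By the same unadjusted threshold other vascular genes were called in APOE4 females too, each with an adjusted p of 0.754. Of the 6 caveolae and transcytosis genes, Cav1 (-0.33, SE 0.0928), which encodes caveolin-1, and Ptrf (-0.37, SE 0.101), which encodes cavin-1, fell, and all 6 lay below 0. Of the 20 other endothelial genes Ly6a fell (-0.51, SE 0.136) and 18 lay below 0, with a median of -0.26; their summed CPM was 291 to 315 in controls and 258 to 286 in nPM mice. Relative to the mean of those 20 genes, Slc2a1 differed by -0.01 and was not called. In bulk cortex, fewer endothelial cells and less of these RNAs per cell cannot be told apart. The 7 microglia markers (221 to 411 against 212 to 258 CPM summed) and 7 choroid plexus markers (39.4 to 1180 against 20.9 to 41.3) were also all below 0 in the fit without any of them passing it, with medians of -0.17 and -0.99; their part in the result was not tested. The median difference rose with transcript length from -0.08 under 1 kb to 0.12 over 8 kb, while most members are in the classes from 2 to 8 kb, whose medians were -0.01 and 0.04.

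In APOE3 females and APOE4 males 0 of 10 members were called, against 0.671% of 16391 and 0.178% of 16867 genes. At an unadjusted p under 0.05 the count was also 0 in both, against 21% and 4.19% of genes. APOE3 female differences ranged from -0.19 (Tek) to 0.45 (Flt1, 95% CI -0.63 to 1.53). In the controls of that comparison Flt1 was 2.30, 3.65, 6.69 and 9.75 CPM, lowest in F6 and 61, the mice with the highest mitochondrial share. In APOE4 males the differences ranged from -0.15 (Ocln) to 0.19 (Slc2a1, -0.01 to 0.40, exact permutation p = 0.171). Nrp1, a VEGF co-receptor gene, was the only one of the 9 VEGF and angiopoietin genes called (-0.37, SE 0.0998, adjusted p = 0.955).

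**Figure D2:**
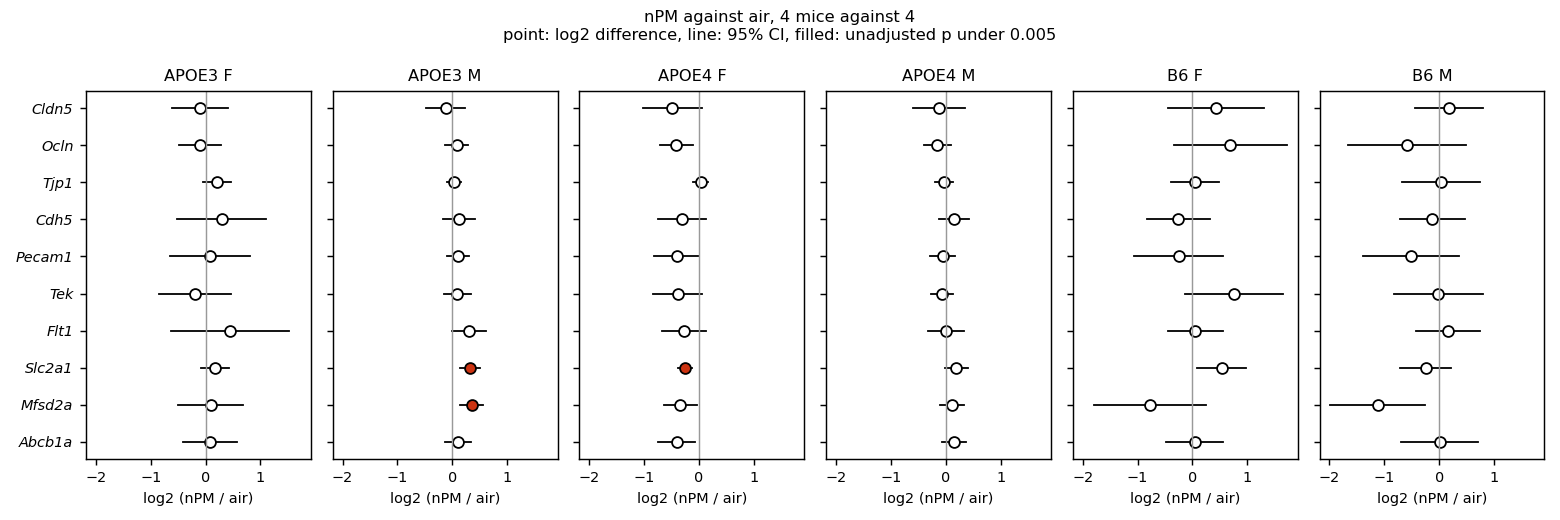
log2 difference of nPM against air (horizontal axis) for the 10 genes in each genotype and sex, 4 mice against 4, with 95% CIs from limma; filled points passed an unadjusted p of 0.005. Slc2a1 and Mfsd2a are filled at 0.32 and 0.35 in APOE3 males and Slc2a1 at -0.25 in APOE4 females.

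In B6 mice no member was called in either sex, against 1.19% of 14784 genes in females and 0.24% of 15404 in males, and 1 member in each sex had an unadjusted p under 0.05, against 10.4% and 4.35% of genes. Slc2a1 in B6 females was 15.2, 20.9, 23.01 and 24.4 CPM in controls and 25.0, 27.5, 30.6 and 34.0 CPM in nPM mice. The groups did not overlap, as for 6.76% of genes, and the log2 difference was 0.54 (95% CI 0.09 to 0.98, exact permutation p = 0.0286, adjusted p = 0.412). Of the 15 other barrier transport genes, Slc7a5, the large neutral amino acid carrier gene, rose in the same mice (0.85, SE 0.248, adjusted p = 0.388). The 20 other endothelial genes summed to 389 to 512 CPM in these controls and 324 to 381 CPM in nPM mice. Relative to the mean of those genes the Slc2a1 difference was 0.46. Summed cortex markers were 516 to 570 against 251 to 570 CPM, and striatum markers 97.0 to 802 against 340 to 1231 CPM. Their part in the result was not tested. Mfsd2a in B6 males was 7.59, 10.6, 11.3 and 20.9 CPM in controls and 2.82, 3.78, 7.02 and 9.41 CPM in nPM mice, which overlapped. Its log2 difference was -1.12 (-1.99 to -0.25, exact permutation p = 0.0571, adjusted p = 0.999). The narrowest interval of the other members was that of Tjp1 in females (-0.39 to 0.48), so differences inside such intervals were not detectable at this depth and group size.

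Across all 48 mice, with sex and genotype in the fit, 0 of 10 members were called (1.43% of 11087 genes), and 0 had an unadjusted p under 0.05 (14.6% of genes). Mfsd2a came nearest, with a log2 difference of -0.29 (95% CI -0.58 to 0.01, adjusted p = 0.348), and the 9 others lay between -0.18 (Pecam1) and 0.11 (Slc2a1). In the test of the nPM response in females minus that in males, 0 of 10 were called (1.96% of genes) and 0 had an unadjusted p under 0.05 (13.6%), with differences of -0.19 (Abcb1a) to 0.27 (Ocln). In the test of the response in APOE4 minus that in APOE3 mice, 0 of 10 were called (0.726% of 15971 genes). All 10 members lay below 0 in that test, against 50.7% of genes, with a median of -0.27, and 7 of 10 did relative to the 20 endothelial genes. The median over all genes of 4 to 8 kb was -0.09 in that test. Slc2a1 was the 1 member with an unadjusted p under 0.05, as for 10.6% of genes. Its difference was -0.27 (95% CI -0.46 to -0.08, adjusted p = 0.443), and it was called, at -0.29 to -0.31, on leaving out any 1 of 6 mice (APOE3 male control 51, APOE3 female control 52, APOE3 nPM male 56, APOE3 nPM female 70, APOE4 male control 3 or APOE4 nPM male 65). The APOE3 female controls, with a mitochondrial share of 12.5 to 21.8%, also enter that test. With that share as a covariate, or without controls 61 and F6, no member was called.

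APOE4 was compared with APOE3 within each sex and exposure, with members called at a 5% FDR. Among nPM males, Flt1 was lower in APOE4 mice. Flt1 was 31.2, 33.8, 36.6 and 37.1 CPM in APOE3 and 19.96, 22.2, 25.99 and 26.9 CPM in APOE4 nPM males, with no overlap. The log2 difference was -0.54 (SE 0.0935, 95% CI -0.74 to -0.33, adjusted p = 0.0316), and 1 of 10 members called compares with 0.498% of 16859 genes. Pecam1 was 13.7, 13.7, 14.2 and 14.5 CPM in APOE3 and 9.53, 10.3, 11.02 and 12.4 CPM in APOE4 mice (-0.36, adjusted p = 0.115). Tek was 8.76, 10.3, 11.04 and 11.2 CPM in APOE3 and 7.29, 7.85, 8.05 and 8.41 CPM in APOE4 mice (-0.36, adjusted p = 0.161). Both receptors and CD31 thus lay apart in every mouse, as did Tjp1 (-0.12, adjusted p = 0.34); these 4 of 10 members without overlap compare with 5.66% of all genes. All 10 members lay below 0, against 48.9% of genes, with a median of -0.20, but relative to the mean of the 20 other endothelial genes 3 of 10 did.

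The Flt1 call depended on single mice and settings. It was lost without APOE3 mice 56 (-0.51), 58 (-0.55) or 76 (-0.51) or APOE4 mice 65 (-0.51) or 93 (-0.46), and Tek (-0.43) was called without APOE3 mouse 58 and Pecam1 (-0.43) without APOE4 mouse 23. The Flt1 call was also lost with the spread shared over all 8 APOE-TR groups (-0.54). Relative to the mean of the 20 other endothelial genes the difference was -0.27 and passed the test, as did 60.1% of all genes in that setting. DESeq2 on the recovered reads also called Pecam1 (-0.37) and Tek (-0.38). In the same mice, Adgrl4 (-0.42, adjusted p = 0.0138) and Tie1 (-0.48, adjusted p = 0.0429), the latter an orphan receptor of the Tie family, fell among the 20 other endothelial genes, and all 20 lay below 0, with a summed CPM of 338 to 366 in APOE4 against 390.2 to 415 in APOE3 mice. Jam2 (-0.26, adjusted p = 0.048), a junctional adhesion molecule gene, fell among the 14 other junction genes. The pericyte gene Rgs5 fell too (-0.50, adjusted p = 0.0105), and the summed CPM of the 10 mural cell markers was 129 to 154 in APOE4 against 174 to 187 in APOE3 mice; the part of these cells in the Flt1 result was not tested.

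Elsewhere no member differed between the alleles by the 5% FDR test: 0 of 10 in female controls (0.231% of 16416 genes called), male controls (0.439% of 16863), nPM females (0.145% of 16507) and all 32 APOE-TR mice (5.94% of 15971). At an unadjusted p under 0.05 there was no member in female controls (41.1% of genes), Cdh5 (-0.29, SE 0.131) in male controls (5.81% of genes), Ocln (-0.43, -0.74 to -0.12) and Slc2a1 (-0.21, -0.40 to -0.03) in nPM females (9.12% of genes), and Ocln in all 32 mice (-0.17, -0.32 to -0.03, adjusted p = 0.0904, 38.5% of genes). In female controls 8 of 10 members lay above 0, against 49.8% of genes, with a median of 0.21 and Flt1 at 0.54 (-0.33 to 1.41). Those APOE3 female controls are the group with the high mitochondrial share. With that share as a covariate, or without controls 61 and F6, still no member was called. In that comparison the median over all genes ran with transcript length from -0.47 under 1 kb to 0.50 over 8 kb. The part of length was not tested. Without control 52, which had the highest Flt1, Cdh5 and Pecam1 of that group, Cdh5 was called (0.70), but so were 38.9% of all genes, so 1 of 10 members was below that share.

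**Figure D3:**
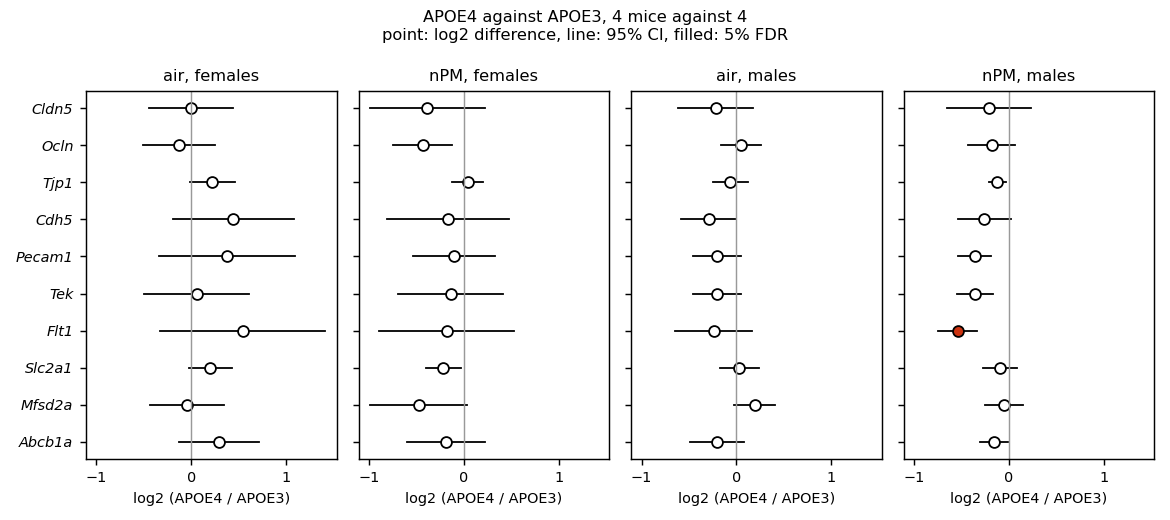
log2 difference of APOE4 against APOE3 (horizontal axis) for the 10 genes by exposure and sex, 4 mice against 4, with 95% CIs from limma; filled points passed a 5% FDR. Flt1 in nPM males is filled at -0.54, and the intervals in female controls are the widest for Flt1, -0.33 to 1.41.

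For 8 of the 10 genes, all but Cldn5 and Mfsd2a, the difference between the sexes was larger than any nPM or allele difference in APOE-TR mice, in a comparison added after the values were seen. Females had lower levels than males of all 10 genes at a 5% FDR, where 60.4% of 15971 genes were called and 30.6% were called lower. Flt1 ranged from 2.30 to 10.1 CPM (median 6.41) in 16 females and from 16.7 to 37.1 (median 27.7) in 16 males, a log2 difference of -2.10 (SE 0.16). Pecam1 ranged from 2.18 to 6.59 CPM (median 3.70) in females and from 9.32 to 15.0 (median 12.6) in males, a difference of -1.57 (SE 0.113). The sexes did not overlap for these genes. Cdh5 ranged from 1.35 to 4.03 CPM (median 2.53) in females and from 5.27 to 11.3 (median 8.22) in males, a difference of -1.54 (SE 0.128). Tek and Abcb1a, the angiopoietin receptor and P-glycoprotein genes, differed by -1.33 (SE 0.104) and -1.27 (SE 0.0884). The tight junction and nutrient transport genes differed less, with Ocln at -0.76, Slc2a1 at -0.59, Tjp1 at -0.51, Cldn5 at -0.45 and Mfsd2a at -0.40. Ranges did not overlap for 7 members, the exceptions being Cldn5, Ocln and Mfsd2a, against 6.69% of all genes.

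In B6 mice the same comparison gave other values. Slc2a1 ranged from 15.2 to 34.0 CPM (median 24.7) in 8 females and from 35.3 to 68.8 (median 52.1) in 8 males, a log2 difference of -1.02 (SE 0.166, adjusted p = 0.000259). Abcb1a ranged from 11.4 to 17.1 CPM (median 13.3) in females and from 4.09 to 9.16 (median 6.25) in males, a difference of 1.00 (SE 0.192, adjusted p = 0.001). Neither gene overlapped between the sexes, as for 3.61% of all genes, and Abcb1a was thus higher in B6 females but lower in APOE-TR females. These were the 2 of 10 members called (26.1% of 13894 genes), and the 8 others lay between -0.75 (Mfsd2a) and 0.47 (Tek). The sex difference in APOE-TR minus that in B6 mice was called for 8 of 10 members (50.5% of 11087 genes), all but Cldn5 and Mfsd2a. It was lowest for Flt1 (-2.35), Abcb1a (-2.21), Pecam1 (-1.95), Tek (-1.75) and Cdh5 (-1.54), and above 0 for Slc2a1 (0.50).

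Depth, mitochondrial share, transcript length and other cell types moved with sex. The mitochondrial share was 7.67 to 21.8% in APOE-TR females against 7.03 to 8.32% in males, and 12 of 16 females were above every male. Depth did not overlap between APOE-TR females and males, so that sex and depth cannot be told apart there. The median sex difference of all genes fell with transcript length in APOE-TR mice, from 0.33 under 1 kb to -0.42 over 8 kb, and rose in B6 mice, from -0.12 to 0.39. For genes of 4 to 8 kb, the class of Flt1, Tek, Abcb1a, Ocln and Tjp1, the median was -0.17 in APOE-TR and 0.18 in B6 mice. Of the 20 other endothelial genes, 17 fell and 0 rose in APOE-TR females, with Ptprb (-1.52), Kdr (-1.38) and Erg (-0.95) first by p, and the list's median was -0.75. Relative to the mean of those genes the sign turned for Mfsd2a (0.38), Cldn5 (0.32), Tjp1 (0.26), Slc2a1 (0.18) and Ocln (0.01), whereas the other 5 members stayed below 0. All 10 basement membrane genes and 8 of 10 mural markers, Myh11 (-1.53) among them, were lower in females, and 5 of 7 oligodendrocyte, 4 of 7 microglia and 4 of 7 astrocyte markers were higher, with medians of 0.33, 0.33 and 0.20. With the mitochondrial share as a covariate all 10 members stayed called below 0. The part of depth, transcript length and the other cell types in the members' differences was not tested.

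**Figure D4:**
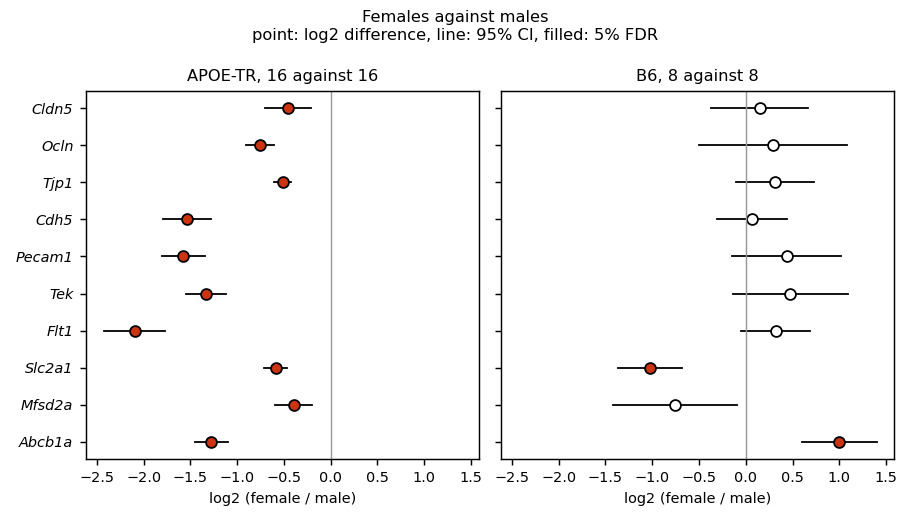
log2 difference of females against males (horizontal axis) for the 10 genes in 32 APOE-TR and 16 B6 mice, with 95% CIs from limma; filled points passed a 5% FDR. All 10 points are filled below 0 in APOE-TR mice, whereas in B6 mice Slc2a1 is filled at -1.02 and Abcb1a at 1.00.

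Other genes of barrier formation were described by lists, and by the rules above few of them were called for nPM. Over all genes the share called was also low, 0.154 to 1.19% in the 6 nPM comparisons of 8 mice. Counts of 0 in lists this small lie near that share. None of the Wnt and norrin pathway genes, which drive barrier maturation (14 to 18 tested of 18), of the basement membrane genes (7 to 10 of 10) or of the leukocyte adhesion genes (2 to 4 of 6) was called in any of the 6 nPM comparisons of 8 mice. Of the junction genes (13 to 14 of 14) 0 were called there, with medians of -0.05 to 0.09, and of the 15 transport genes 1 (Slc7a5 in B6 females). For the allele over 32 mice, 5.94% of all genes were called at a 5% FDR. In that fit, which includes the APOE3 female controls, the median over all genes ran from -0.17 under 1 kb to 0.16 over 8 kb. The part of transcript length or mitochondrial share in the list genes was not tested. Jam2 fell (-0.25, adjusted p = 0.000137), as did Vegfc (-0.35, adjusted p = 0.00272), a ligand of VEGF receptor 3. Vcam1, a leukocyte adhesion molecule gene, fell (-0.35, adjusted p = 0.0028) and Lrg1 rose (0.24, adjusted p = 0.0347). Of the caveolar genes, Cav1 (-0.18) and Cav2 (-0.36) fell, and of the 20 endothelial genes 4 fell, with S1pr1 (-0.21), Adgrl4 (-0.34) and Icam2 (-0.30) first by p.

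Within groups, after the group means were subtracted, the members varied together only in part. Over the 45 pairs of members the median Pearson r was 0.34 in both tables, from -0.44 to 0.93 over 32 APOE-TR mice and from -0.49 to 0.69 over 16 B6 mice. The closest pairs in APOE-TR mice were Pecam1 with Flt1 (0.93 and, in B6, 0.52), Cdh5 with Flt1 (0.90 and 0.30) and Cdh5 with Pecam1 (0.85 and 0.56). Among all 11087 genes tested in both tables, the gene most like Flt1 was Abcc9, a mural cell marker (r = 0.84 in APOE-TR and 0.75 in B6 mice), followed by Ptprb, the endothelial phosphatase VE-PTP (0.91 and 0.66), which was also first for Abcb1a (0.90 and 0.65). Itm2a was first for Ocln (0.59 and 0.70), Sox2 (0.59 and 0.66) and Rgs5 (0.54 and 0.63) for Cldn5, Tacc1 for Tjp1 (0.73 and 0.77) and Ewsr1 for Tek (0.79 and 0.85). Plcg1 was first for Cdh5 (0.75 and 0.74), Emsy for Pecam1 (0.82 and 0.73), Vps18 for Slc2a1 (0.42 and 0.72) and Adipor2 for Mfsd2a (0.75 and 0.60). Such values are descriptions over mice whose genes share library, depth and RNA quality. Because members vary together, a count of them on either side of 0 is not a count of independent results.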

How the data were processed

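Cerebral cortex RNA of 48 mice (12 groups of 4 by the labels) was sequenced by the authors from stranded mRNA libraries after perfusion, mapped with TopHat2 2.0.8b to mm10 and quantified in Partek. The deposited CPM values come as separate B6 and APOE-TR tables; other normalization steps are not given in the sources used here. Values above the lowest were nearly whole multiples of 1 read in APOE-TR mice (96.1 to 97.1% within 0.1 of a read) but less so in B6 (87.7 to 98.4%), so read counts were recovered for APOE-TR only, and B6 depths are estimates. From each table, 4 listings of repeated symbols were left out. One control column (F6) matched its group but no animal number in the labels. Here CPM was TMM-scaled (edgeR 4.0.16), logged as log2(CPM + 0.5) and fitted with limma 3.58.1 (R 4.3.3, two-sided) over genes above the lowest value in every mouse of the fit; a log2 difference on this scale understates changes of low genes. nPM was called at an unadjusted p of 0.005, as in the study's methods, and the allele at a 5% FDR (Benjamini-Hochberg over all genes). The labels number samples as separate mice, and p-values measure the spread between them. The members and gene lists were chosen with earlier results of these data known. The 10 members were named in full. Other genes were drawn from the called genes with the smallest p of each list and comparison, at most 3 a direction. Some of the 3 genes most alike each member within groups were named as well. Not every gene so drawn is printed. Called for nPM but not printed above were S100a8 in APOE3 males, Fezf2 in APOE3 females, Aldoc in B6 females and Cux2 in B6 males. Nos3 and Cspg4, called for nPM over 48 mice, were not printed either. Transcript lengths are of the longest coding transcript in GENCODE vM21; promoters are RefSeq's, found for 8 members. In simulated counts with the same spread for every gene, the fit recovered 100 of 100 genes changed by 1 on the log2 scale (nPM in APOE4 females, 16466 genes). Changes as small as the nPM and allele differences called for members were not simulated, so their recovery is not known. Alternatives covered pseudocount, scaling, filter, voom, sample weights, edgeR and DESeq2 1.42.0 on recovered reads, and leaving out each mouse.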

Additional observations from a re-analysis of the deposited data

Results flagged for a closer look

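Of 120 sets of 4 mice (10 genes in 12 groups), 3 held a mouse whose gap to the nearest other took up more of the range of its group than Dixon's 95% critical value for 4 samples; chance alone would give 6 of 120. Cdh5 was 7.29 CPM in APOE3 male control 55, under 9.23 to 9.33 in the other 3 mice. Cdh5 was 3.95 CPM in APOE4 nPM female 23, over 1.70 to 2.03 in the others. Tjp1 was 55.5 CPM in B6 male control 6, the shallowest library, over 26.3 to 30.9 in the others.

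The difference between females and males itself differed between APOE-TR and B6 mice, by the test over 48 mice at a 5% FDR, for 8 genes. The sex difference in APOE-TR minus that in B6 was -2.35 for Flt1, -2.21 for Abcb1a, -1.95 for Pecam1, -1.75 for Tek, -1.54 for Cdh5, -0.998 for Ocln and -0.76 for Tjp1 on the log2 scale. It was 0.50 for Slc2a1. Strain, age, exposure time and table differ together between these mice and cannot be told apart.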

How the results depend on the processing

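Of 5580 recomputed differences of members, 5258 kept their direction and their side of the threshold, 34 were no longer called, 30 became called and 258 changed sign, 7 of them where the value or its alternative had passed a test or both had an unadjusted p under 0.05. Those 7 arose relative to the 20 endothelial genes, in the sex comparison: in APOE-TR mice Cldn5 0.32, Ocln 0.014, Tjp1 0.26, Slc2a1 0.18 and Mfsd2a 0.38, and in APOE-TR minus B6 Cldn5 0.45 and Tjp1 0.23. The 5580 differences include those of the exact permutation test, which cannot reach the nPM threshold. The 34 losses thus include Slc2a1 and Mfsd2a for nPM in APOE3 males and Slc2a1 for nPM in APOE4 females under that test. They also include Flt1 for the allele in nPM males, at the smallest p that test allows. Sides kept or lost under that test therefore do not show how stable a call is. Of 548 recomputed counts of called members, 514 stayed within 1.5 times.

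For nPM in APOE3 males the count of 2 became 1 with sample quality weights (0.29% of all genes called) and 0 relative to endothelial genes (1.12%). It became 1 with a spread shared over the groups (0.0829%) and 0 with the mitochondrial share as a covariate (0.0947%). With that covariate the differences stayed at 0.30 (Slc2a1) and 0.35 (Mfsd2a). For nPM in APOE4 females the count of 1 became 0 relative to endothelial genes (4.18% of all genes called) and 2 with the mitochondrial covariate (0.272%). With the shared spread it stayed at 1 (41 of 16559 genes), with Ocln (-0.41) called and Slc2a1 (-0.26) not. For the allele, the count of 0 in female controls became 1 with sample quality weights and 1 with the shared spread, where 36.2% and 53.8% of all genes were called. The count of 1 in nPM males became 3 with DESeq2 (1.25% of all genes) and 0 with the shared spread (0.249%). For the nPM response in APOE4 minus APOE3 mice the count of 0 became 2 with sample quality weights (11.7% of all genes). The causes were not tested. Leaving out each mouse gave 0 to 2 for nPM in APOE3 males and 0 to 3 in APOE4 females. In the fits with a changed count, 0.0708 to 0.437% and 0.0903 to 0.331% of all genes were called. For the allele it gave 0 to 1 in female controls (38.9% where changed) and 0 to 2 in nPM males (0.313 to 0.419%). For the response in APOE4 minus APOE3 it gave 0 to 1 (0.469 to 2.83%). For sex it gave 2 to 3 in B6 mice (3610 of 13909 genes) and 8 to 10 in APOE-TR minus B6 (5477 to 5641 genes). The other counts did not change. Where a group was left with 3 mice, the spread was pooled.

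No paired analysis was possible because no groups compared share as many as 2 animal numbers: those compared for nPM or the allele share none, and females and males of a genotype and exposure share at most 1, which names different mice. Count tests were not run on B6 or 48-mouse fits, for want of whole reads. The exact permutation test over 8 mice cannot go below 0.0286, so it cannot reach the 0.005 threshold. The covariate and the fits without APOE3 female controls 61 and F6, like the sex comparison, were chosen after seeing the data. Groups of 4 and, in B6, low depth limit what could be detected.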

Other observations

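Some genes of the cells that wrap brain vessels differed between the alleles over all 32 APOE-TR mice. The fit was limma with sex and nPM, and 5.94% of genes were called at a 5% FDR. Its median over all genes ran with transcript length from -0.17 under 1 kb to 0.16 over 8 kb. The part of length in these genes was not tested. Of the 10 mural cell markers 3 fell in APOE4 mice, the pericyte gene Rgs5 by 0.37 (adjusted p = 0.000141) and the contractile genes Tagln and Acta2 by 0.43 each (adjusted p = 0.000613 and 0.00748), on the log2 scale. Of the 7 astrocyte markers 2 fell, Aqp4, the water channel of the vascular end-feet, by 0.43 (adjusted p = 0.000602) and Gja1 by 0.18 (adjusted p = 0.0482). None of the 10 endothelial and barrier genes was called in that comparison.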
